A study of Mus musculus with 12 samples.

Results

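The 229 well expressed long noncoding RNAs of 10T1/2 cells were described across 3 collagen matrices. Members were chosen by their measured level. A gene belonged to the set if the deposited annotation column called it a long noncoding RNA (lncRNA) and its mean level over all 12 libraries was at least 5 CPM, where CPM is a gene's count scaled to the same total in every library. Of 11288 lncRNA genes in the table of 56748 genes, 229 met this rule. 10T1/2 is a mouse mesenchymal progenitor line, wild type and labelled as mesenchymal stem cells, so each library is a culture of 1 established line. By the study's methods the cells were kept overnight in 0.5% FBS. They then spent 1 h in suspension, in 0.5% FBS by the labels and without serum by the methods. In every group they were next seeded in low serum (0.5% FBS by the methods) and spent 18 h on 12 kPa plates. The coat of the plates was type I collagen at 0.05 mg/mL (col1). In the col1-ACLP group the collagen had been polymerized with 30 nM recombinant aortic carboxypeptidase-like protein (ACLP), a secreted matrix protein that binds fibrillar collagen. The col1-ACLP+SB group had the same matrix plus SB431542, an inhibitor of the TGFβ receptor kinase ALK5. Each group had 4 libraries. A group with the inhibitor on collagen without ACLP was not analysed here, so the inhibitor could be followed only on the ACLP matrix.

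Long noncoding RNAs are transcripts without a long conserved reading frame. Some stay in the nucleus, where they scaffold bodies such as paraspeckles or coat a chromosome, and others act in the cytoplasm or are precursors from which small RNAs are cut. Many lie antisense to a protein-coding gene or start back to back with it. The libraries were made from poly(A) RNA, which favours polyadenylated transcripts. Malat1, whose mature 3' end is a triple helix in place of a poly(A) tail, and other RNAs without a stable tail are recovered only in part, so levels of different RNAs are compared with that limit. The sources used here do not state whether counting used the strand, so reads of an antisense lncRNA and of the gene across from it cannot be told apart where their exons overlap.

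Library totals ran from 29246154 to 52201922 counts. The lncRNAs themselves formed 229 of the 16465 genes that passed the filter on low counts. Mesenchymal markers (8 genes, Col1a1 and Vim among them) summed to 33561 to 34761 CPM in the col1 libraries and 43609 to 52550.3 CPM in the col1-ACLP libraries. In the col1-ACLP+SB libraries they summed to 40219 to 45810.7 CPM. Of these 8, 2 were higher and 3 lower on col1-ACLP by adjusted p, beside 9.52% and 8.41% of all genes tested. The summed markers of endothelial, epithelial, immune, adipocyte and skeletal muscle cells reached no more than 10.04 CPM in any library. Among their single genes by adjusted p, the immune marker Cd68 (9.47 ± 0.500 CPM on col1) was lower on col1-ACLP (6.73 ± 1.47 CPM), the endothelial marker Tek was lower with the inhibitor (4.90 ± 0.925 CPM) than without (8.87 ± 1.02 CPM), and the adipocyte marker Fabp4 was lower on col1-ACLP+SB (0.436 ± 0.230 CPM) than on col1 (1.73 ± 0.638 CPM; SD, n = 4 each, edgeR). Their part in the results was not tested. The study describes the libraries of a group as biological replicates, and the labels name no separate cultures, so p-values measure the spread between these libraries. All values are from bulk RNA, in which fewer cells with a transcript and less transcript per cell cannot be told apart.

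Levels in CPM, the scale of the rule, fell steeply with rank. Malat1 (mean 1595 CPM over the 12 libraries), Xist (1510.5 CPM) and Neat1 (967 CPM) together held 51.2% of the CPM of the set, and the 10 most abundant RNAs held 62.9%. Malat1 is a resident of nuclear speckles, Xist coats the inactive X chromosome and Neat1 is the backbone of paraspeckles. Norad (252 CPM), which binds Pumilio proteins in the cytoplasm, and Oip5os1 (223 CPM), known as Cyrano and able to trigger decay of miR-7, came next. Mir100hg (139 CPM), AI506816 (111 CPM), Firre (81.3 CPM), C430049B03Rik (62.2 CPM) and Mir22hg (59.9 CPM) completed the 10. Gm47469, Erdr1, 2410006H16Rik, 1110038B12Rik and B930095G15Rik took ranks 11 to 15, at 55.9, 55.4, 55.2, 53.8 and 51.1 CPM. Below them 81 RNAs lay between 10 and 30 CPM and 116 between 5 and 10 CPM. The rule itself fixed the lower end: Gm16008 (5.05 CPM), 3110056K07Rik (5.04 CPM), Gm4419 (5.03 CPM), ENSMUSG00000120999 and F730043M19Rik (both 5.01 CPM) were just inside, while 1110046J04Rik (5.00 CPM after rounding), D430020J02Rik (4.99 CPM), 8430429K09Rik (4.94 CPM), Gm17552 (4.93 CPM) and ENSMUSG00000120241 (4.92 CPM) were just outside.

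**Figure D1:**
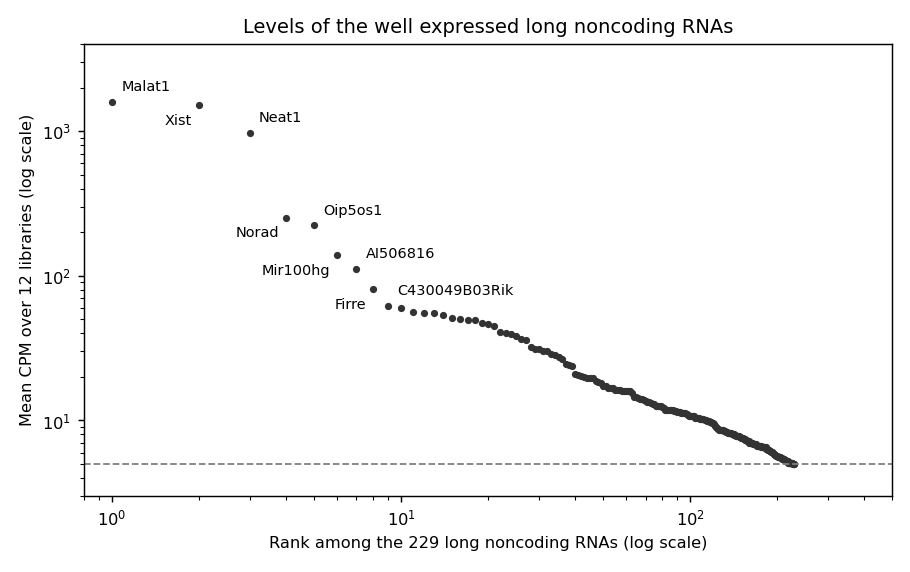
Mean level of each of the 229 lncRNAs over 12 libraries, in CPM by library totals on a log axis, against its rank on a log axis, with the dashed line at 5 CPM. Malat1, Xist and Neat1 lie at 1595, 1510.5 and 967 CPM and the next RNA, Norad, lies at 252 CPM.

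Levels per kilobase of transcript, the scale on which genes can be compared, ordered the RNAs differently. Malat1 led at 228 CPM per kilobase, followed by Xist (84.2), Norad (51.1) and Neat1 (45.7). The next were short transcripts, namely ENSMUSG00000121092 (534 bases, 44.3 CPM per kilobase), Gm10076 (407 bases, 41.2), Erdr1 (35.1), Mir22hg (31.2), Gm17201 (390 bases, 29.1) and 2410006H16Rik (26.6). These values use the deposited lengths. GENCODE vM39 gives Gm10076 1379 exonic bases, so its place rests on the deposited length. Exons of Lrrc75a on the other strand cover those of 2410006H16Rik. Lengths in the set ran from 297 to 93092 bases with a median of 3116 bases. The genes lay on 21 chromosomes, 10 of them on the X, and 29 carried an Ensembl identifier with no symbol. A further 73 had provisional Gm names and 69 Riken names, so roles are known for few of them.

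As a share of all counts the set was smallest on col1-ACLP. The 4 col1 libraries held 0.876%, 0.804%, 0.877% and 0.797% of their counts on the 229 lncRNAs, and the col1-ACLP libraries 0.683%, 0.727%, 0.736% and 0.682%. With the inhibitor the shares were 0.837%, 0.903%, 0.796% and 0.821%. All 4 col1-ACLP libraries lay below all 8 others, with group means of 0.838 ± 0.044%, 0.707 ± 0.029% and 0.839 ± 0.046% in the order col1, col1-ACLP and col1-ACLP+SB (SD, n = 4). Leaving out Malat1, Xist and Neat1, the means were 0.407 ± 0.00704%, 0.362 ± 0.0106% and 0.394 ± 0.0129%. No test was run on this summed value, since it is a score over chosen genes. The share of mitochondrially encoded genes was also lowest on average on col1-ACLP, with overlap of its libraries and the inhibitor libraries, at 2.65 ± 0.25%, 2.09 ± 0.097% and 2.50 ± 0.33% of counts, and its part in the lncRNA shares was not tested.

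**Figure D2:**
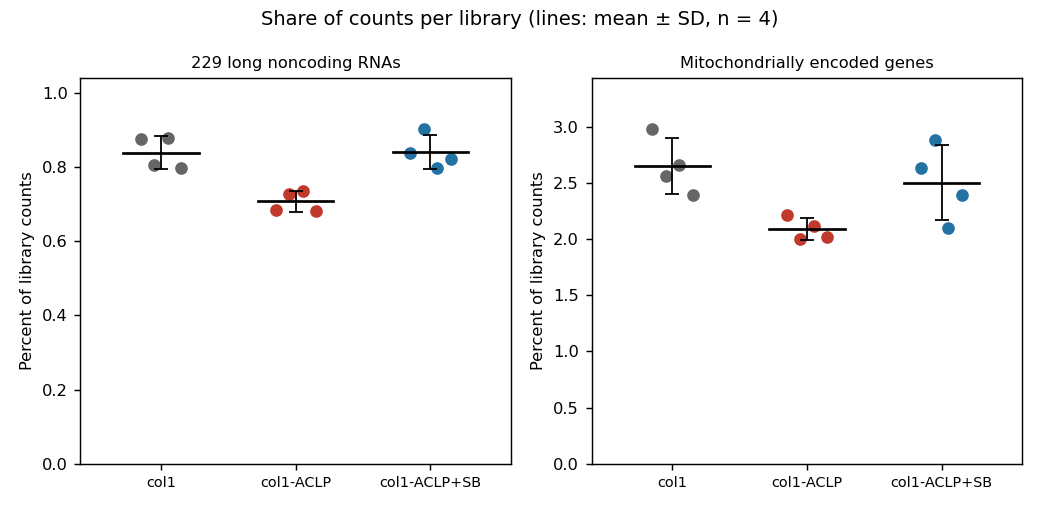
Percent of each library's counts on the 229 lncRNAs (left) and on mitochondrially encoded genes (right), with 1 point per library and lines for the mean ± SD (n = 4). The col1-ACLP libraries, at 0.682% to 0.736% on the left, lie below all libraries of the other groups.

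Collagen-bound ACLP was compared with collagen alone to ask which lncRNAs respond to the protein in the matrix. Among the 229, 17 were called lower on col1-ACLP, led by Gm830, ENSMUSG00000121093, Gm12454 and Gm10941, and 6 were called higher, led by 1700061I17Rik and Gm15867. Scaling by library size alone gave 26 lower, and a test against a log2 fold change of 0.58 (glmTreat) gave 4 lower and 2 higher. A call needed an adjusted p under 0.05 in the quasi-likelihood test of edgeR, where the Benjamini-Hochberg method was applied over all 16465 genes, and a log2 fold change beyond 0.58 in size. The rule for the set used the mean over all groups. Gm830 and Gm4419, among others, met it only through groups where they were high, so their calls are tied to that choice. The lower calls were 7.42% of the lncRNAs against 2.36% of all genes tested, and the higher calls were 2.62% against 2.61%. By adjusted p alone 46 lncRNAs (20.1%) were lower and 14 (6.11%) were higher, where all genes gave 8.41% lower and 9.52% higher, and all genes at 5 CPM or more 11.9% and 13.9%. The median log2 fold change of the 229 was -0.16, against -0.0099 for all genes tested and 0.0101 for protein-coding genes at 5 CPM or more. All col1-ACLP libraries lay below all col1 libraries for 46 lncRNAs (20.1%, against 10.3% of all genes) and above them for 13 (5.68%, against 10.9%). Estimates were below 0 for 157 of the 229 (68.6%), against 51.5% of all genes.

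Medians were below 0 in each class of level. Median log2 fold changes were -0.15 for the 116 lncRNAs at 5 to 10 CPM, -0.15 for the 81 at 10 to 30 CPM and -0.17 for the 32 at 30 CPM or more. Protein-coding genes in the same classes had medians of -0.0162, -0.000479 and 0.0160. Among the 32 abundant lncRNAs, 12 (37.5%) were lower and 5 (15.6%) higher by adjusted p, where protein-coding genes of that class gave 14% lower and 17.9% higher. The 1633 lncRNAs tested below 5 CPM, outside the set, had a median of -0.16. The median of the set stayed between -0.17 and -0.13 when any 1 library was left out.

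**Figure D3:**
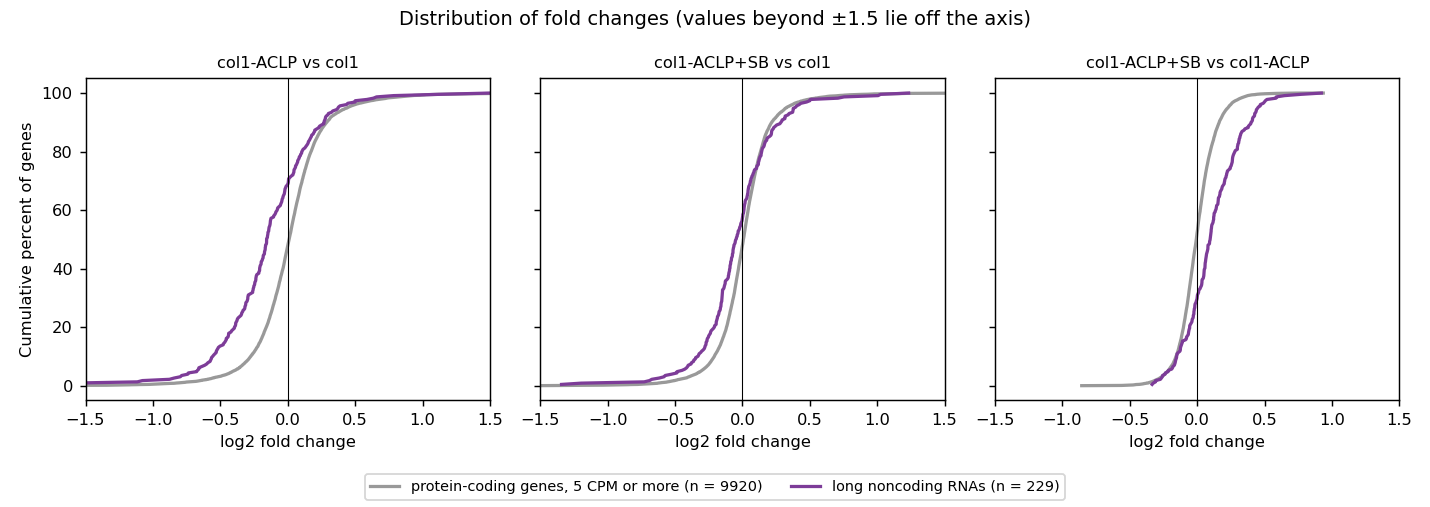
Cumulative percent of genes against the log2 fold change in the 3 comparisons, for the 229 lncRNAs (purple) and for 9920 protein-coding genes at 5 CPM or more (grey). The lncRNA curve lies left of the grey curve in col1-ACLP vs col1 (medians -0.16 and 0.0101) and right of it in col1-ACLP+SB vs col1-ACLP (medians 0.0960 and -0.00698). The comparisons share libraries.

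Most of the listed nuclear and X-linked lncRNAs of the set were lower on col1-ACLP by adjusted p. The list does not cover every X-linked lncRNA of the set, which has 10 on the X. Of 8 genes listed, 5 were in the set (Malat1, Neat1, Xist, Firre and Ftx), and Jpx, Miat and Tsix were not. By adjusted p, 4 of the 5 were lower on col1-ACLP than on col1, none passed between col1-ACLP+SB and col1, and 4 were higher with the inhibitor than without it on the ACLP matrix. Of all genes tested, 8.41% were lower in the comparison of col1-ACLP and col1 and 0.571% higher in that of the inhibitor. No estimate reached 0.58 in size. The list's median log2 fold change was -0.25 for col1-ACLP vs col1 and 0.33 for col1-ACLP+SB vs col1-ACLP, against -0.0099 and 0.00485 for all genes tested.

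Neat1, the architectural RNA of paraspeckles, had 1056, 1009, 1072 and 999 CPM in the col1 libraries, 811, 811, 809.9 and 772 CPM in the col1-ACLP libraries and 1074, 1198, 956 and 1029 CPM in the col1-ACLP+SB libraries. All col1-ACLP libraries lay under all others. It fell on col1-ACLP (log2 fold change -0.37 ± 0.05 (SE), edgeR adjusted p = 5.08e-06) and was higher with the inhibitor than without it (log2 fold change 0.41 ± 0.05 (SE), edgeR adjusted p = 6.8e-05). Xist, from the X inactivation centre, had 1611, 1427, 1711 and 1512 CPM in the col1 libraries, 1256, 1311, 1427 and 1287 CPM in the col1-ACLP libraries and 1708, 1842, 1546 and 1479 CPM in the col1-ACLP+SB libraries. The col1-ACLP libraries lay below every other library, although col1-ACLP library 3 and col1 library 2 were nearly equal. Xist fell on col1-ACLP (log2 fold change -0.25 ± 0.06 (SE), edgeR adjusted p = 0.0037) and rose with the inhibitor (log2 fold change 0.32 ± 0.06 (SE), edgeR adjusted p = 0.0052). For Neat1 and Xist, the adjusted p of both differences stayed under 0.05 with each library left out in turn.

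Firre, an X-linked RNA of repeats that binds nuclear matrix proteins, had 91.6, 82.5, 91.5 and 81.8 CPM in the col1 libraries, 70.8, 67.2, 67.9 and 69.5 CPM in the col1-ACLP libraries and 93.4, 98.6, 71.1 and 89.4 CPM in the col1-ACLP+SB libraries. The col1-ACLP libraries were the lowest 4 of the 12. The fall on col1-ACLP (log2 fold change -0.33 ± 0.08 (SE), edgeR adjusted p = 0.0021) stayed under an adjusted p of 0.05 with each library left out. The rise with the inhibitor (log2 fold change 0.35 ± 0.08 (SE), edgeR adjusted p = 0.0142) was lost when col1-ACLP library 3 or col1-ACLP+SB library 1, 2 or 4 was left out (edgeR adjusted p 0.05 to 0.0596). Malat1 had 1908, 1523, 1743 and 1411 CPM in the col1 libraries, 1196, 1476, 1481 and 1410.2 CPM in the col1-ACLP libraries and 1559, 1957, 1720.2 and 1744 CPM in the col1-ACLP+SB libraries. Its col1 and col1-ACLP libraries overlapped, and all inhibitor libraries were above all col1-ACLP libraries. Malat1 was lower on col1-ACLP (log2 fold change -0.24 ± 0.08 (SE), edgeR adjusted p = 0.0259), an adjusted p under 0.05 that was lost when col1 library 1 or 3 or col1-ACLP library 1 was left out (edgeR adjusted p 0.0909 to 0.149). It was higher with the inhibitor (log2 fold change 0.33 ± 0.08 (SE), edgeR adjusted p = 0.0259), an adjusted p under 0.05 that was lost when col1-ACLP library 1 or 4 or col1-ACLP+SB library 2 or 4 was left out (edgeR adjusted p 0.0583 to 0.11). DESeq2 left both Malat1 differences above 0.05 (adjusted p = 0.11 and 0.0702). Ftx, which neighbours Xist, had group means of 11.4 ± 0.900, 10.4 ± 1.91 and 11.8 ± 2.99 CPM (SD, n = 4 each), and no comparison passed.

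Genes for the protein parts of paraspeckles gave other values than Neat1. Of 11 paraspeckle protein genes, 3 were higher on col1-ACLP by adjusted p and none was lower, beside 9.52% and 8.41% of all genes tested, with a median log2 fold change of 0.0988. Dazap1, an RNA-binding protein of these bodies, rose from 75.1 ± 3.12 to 89.4 ± 3.38 CPM (SD, n = 4), with log2 fold change 0.25 ± 0.06 (SE), edgeR adjusted p = 0.00554. Nono and Sfpq, which are essential to paraspeckles, gave edgeR adjusted p values of 0.799 and 0.184. Of 8 genes for nuclear RNA decay, Rbm7, an adaptor of the nuclear exosome, was lower (log2 fold change -0.24 ± 0.08 (SE), edgeR adjusted p = 0.0342) and the others did not pass. Of all genes tested, 8.41% were lower.

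**Figure D4:**
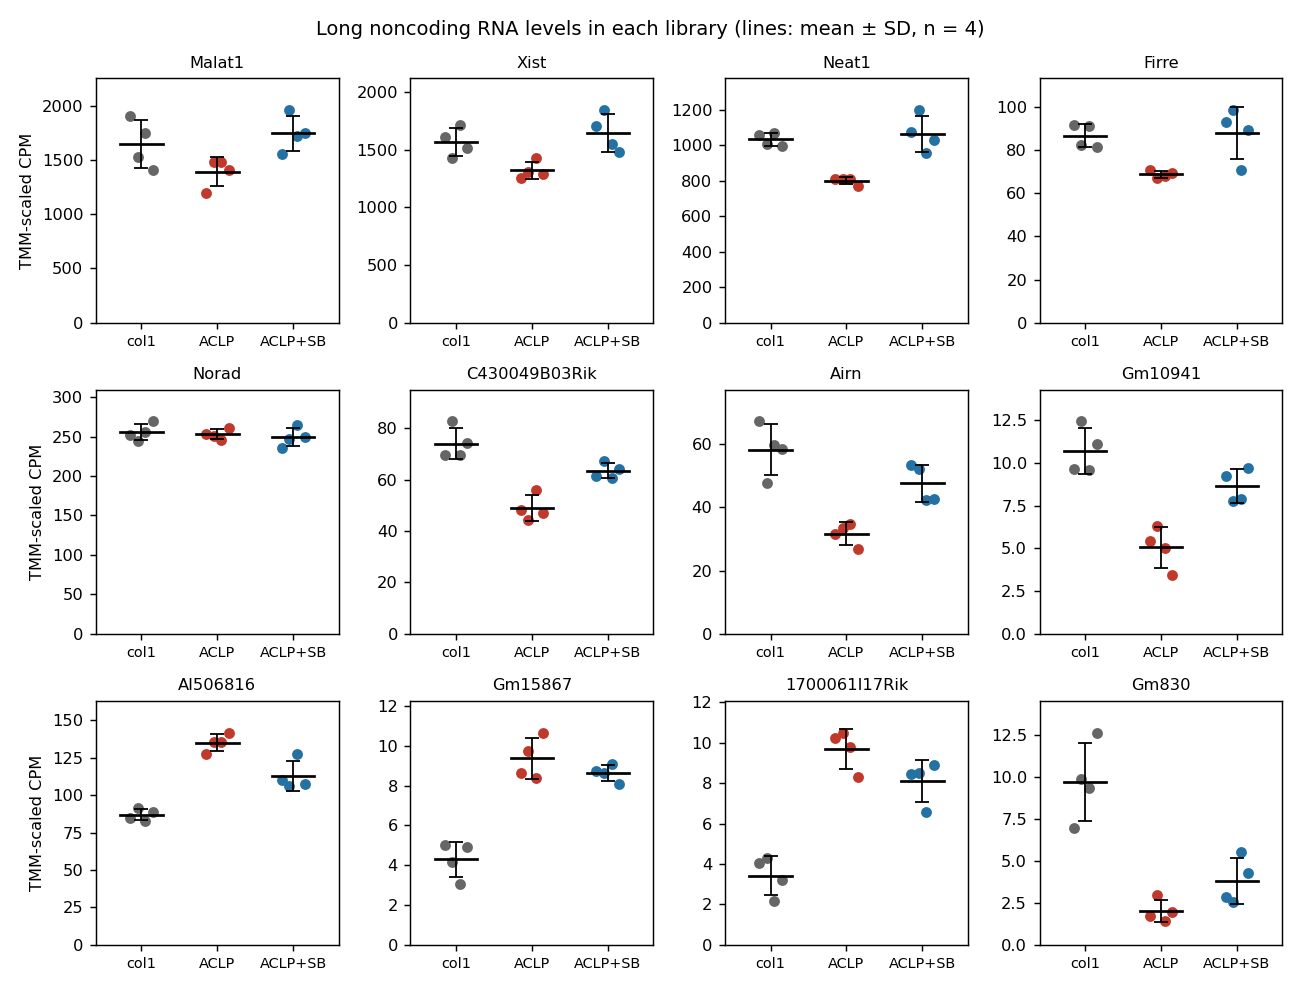
TMM-scaled CPM of 12 lncRNAs in each library, on axes from 0, with lines for the mean ± SD (n = 4) in col1 (grey), col1-ACLP (red) and col1-ACLP+SB (blue). Norad is level across the groups, Neat1 is lowest on col1-ACLP at 772 to 811 CPM, and AI506816 is highest there at 128 to 142 CPM.

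Norad and Pvt1 were the cytoplasmic and conserved lncRNAs of the set, from a list of 6. Tug1 carried the protein-coding biotype in the deposited table and thus lay outside the rule. Norad had 253, 244, 256 and 269.2 CPM in the col1 libraries, 254, 251, 245 and 260.8 CPM in the col1-ACLP libraries and 236, 247, 265 and 249.963 CPM in the col1-ACLP+SB libraries. The 3 groups overlapped throughout, and edgeR adjusted p was 0.888 for col1-ACLP vs col1. Pvt1, the neighbour of Myc, had 27.4, 29.0, 27.5 and 28.7 CPM in the col1 libraries, 18.6, 19.5, 23.6 and 22.4 CPM in the col1-ACLP libraries and 23.1, 27.5, 26.3 and 22.7 CPM in the col1-ACLP+SB libraries. It fell on col1-ACLP (log2 fold change -0.42 ± 0.09 (SE), edgeR adjusted p = 0.00165), where all 4 libraries lay below all col1 libraries. The inhibitor libraries overlapped both other groups, and no difference from either passed. Of 10 genes for nonsense-mediated decay, a pathway that removes many noncoding transcripts, 1 was higher on col1-ACLP (Smg5, log2 fold change 0.24) and 3 were lower (Upf1 -0.16, Smg1 -0.17 and Smg6 -0.35), none past 0.58 in size, beside 9.52% and 8.41% of all genes tested.

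Oip5os1, 2410006H16Rik, 1110038B12Rik and B930095G15Rik did not pass the test between col1-ACLP and col1. Oip5os1 had 240.038, 206, 234 and 227 CPM in the col1 libraries, 223, 235, 231 and 210.2 CPM in the col1-ACLP libraries and 222, 199, 220.0 and 224 CPM in the col1-ACLP+SB libraries. The ranges of the 3 groups overlapped, and edgeR adjusted p was 0.927 for col1-ACLP vs col1 and 0.763 for the inhibitor on col1-ACLP. Group means of 2410006H16Rik were 60.2 ± 5.14, 50.4 ± 7.19 and 54.9 ± 7.31 CPM, and those of 1110038B12Rik were 57.0 ± 2.53, 51.1 ± 5.35 and 53.1 ± 6.27 CPM (SD, n = 4 each, in the order col1, col1-ACLP and col1-ACLP+SB). B930095G15Rik had 48.7 ± 6.28, 48.9 ± 5.53 and 55.9 ± 6.25 CPM. The edgeR adjusted p values for col1-ACLP vs col1 were 0.0691, 0.213 and 0.979 for these 3 in turn. In GENCODE vM39 exons of Lrrc75a, on the other strand, cover 100% of the exonic bases of 2410006H16Rik. Reads of 2410006H16Rik cannot be told from those of Lrrc75a if counting ignored the strand.

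Of 9 imprinted lncRNAs listed, 3 were in the set. H19 (2.91 CPM), Meg3 (2.83 CPM) and Rian (1.10 CPM) were below its threshold. Airn is transcribed from the paternal allele antisense to Igf2r and silences it there. Airn had 67.3, 47.8, 59.8 and 58.5 CPM in the col1 libraries, 31.6, 33.6, 34.9 and 26.9 CPM in the col1-ACLP libraries and 53.4, 52.2, 42.5 and 42.8 CPM in the col1-ACLP+SB libraries. The col1-ACLP libraries lay below all others, and the inhibitor libraries overlapped the col1 libraries. Airn fell on col1-ACLP (log2 fold change -0.88 ± 0.10 (SE), edgeR adjusted p = 2.42e-07) and was called higher with the inhibitor (log2 fold change 0.59 ± 0.10 (SE), edgeR adjusted p = 0.00245). The antisense partner Igf2r also fell, with a log2 fold change of -0.32 ± 0.05 and an edgeR adjusted p of 2.57e-05. In GENCODE vM39 the exons of Airn share no base with another gene, although its span crosses Igf2r.

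Kcnq1ot1, a long antisense RNA that silences genes of the Kcnq1 domain, had 23.7, 23.4, 20.002 and 17.6 CPM in the col1 libraries, 15.1, 15.6, 19.5 and 14.7 CPM in the col1-ACLP libraries and 19.7, 25.5, 22.8 and 19.1 CPM in the col1-ACLP+SB libraries. Its col1 and col1-ACLP libraries overlapped. It was lower on col1-ACLP (log2 fold change -0.39 ± 0.12 (SE), edgeR adjusted p = 0.0238), an adjusted p under 0.05 that was lost when col1 library 1 or 2 or col1-ACLP library 1, 2 or 4 was left out (edgeR adjusted p 0.0602 to 0.0907). Peg13 had 48.1, 48.9, 42.4 and 40.4 CPM in the col1 libraries, 52.5, 52.0, 52.6 and 54.0 CPM in the col1-ACLP libraries and 45.1, 59.8, 51.5 and 45.5 CPM in the col1-ACLP+SB libraries. All col1-ACLP libraries exceeded all col1 libraries, but the difference did not pass (log2 fold change 0.23 ± 0.08 (SE), edgeR adjusted p = 0.0531), and the adjusted p was under 0.05 in 9 of 20 alternatives. Of 8 imprinted protein-coding genes tested, Igf2r and Plagl1, a zinc finger regulator, were lower on col1-ACLP by adjusted p, as were 8.41% of all genes. Plagl1 went from 18.996 ± 1.74 to 10.1 ± 1.72 CPM (SD, n = 4), and was called (log2 fold change -0.91 ± 0.13 (SE), edgeR adjusted p = 1.33e-05).

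Of 15 listed hosts of microRNAs, 6 were in the set by symbol, namely Mir100hg, C430049B03Rik, Mir22hg, Dnm3os, Carmn and Mir99ahg. Their transcripts are cut in the nucleus to release hairpins that mature to short RNAs, and bases 2 to 8 of the mature RNA, the seed, choose its targets. The mature sequences are shown because different hosts in the set carry the same seeds. The deposited coordinates placed 21 miRNA genes inside 12 of the 229 lncRNAs, and the mature sequences are those of RefSeq (GRCm38.p6). At and just past the 3' end of C430049B03Rik, named Mir503hg in GENCODE vM39, lay Mir322, Mir503 and Mir351. Mirlet7a-2, a let-7 gene, lay inside Mir100hg. Only its 3p sequence (let-7a-2-3p) was given, and it is not shown. The sequences run 5′ to 3′ with the seed in capitals, from the hosts C430049B03Rik (miR-322-5p, miR-503-5p and miR-351-5p), Dleu2 (miR-15a-5p and miR-16-5p), Mir100hg (miR-100-5p and miR-125b-5p), Mir99ahg (miR-99a-5p, let-7c-5p and again miR-125b-5p), Lncppara (let-7b-5p and again let-7c-5p), Mir22hg (miR-22-3p) and Dnm3os (miR-199a-5p and miR-214-3p).
mmu-miR-322-5p: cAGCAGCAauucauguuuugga
mmu-miR-15a-5p: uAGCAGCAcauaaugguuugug
mmu-miR-16-5p: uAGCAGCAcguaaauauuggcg
mmu-miR-503-5p: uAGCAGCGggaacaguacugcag
mmu-miR-351-5p: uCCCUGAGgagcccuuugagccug
mmu-miR-125b-5p: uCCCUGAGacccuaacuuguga
mmu-miR-100-5p: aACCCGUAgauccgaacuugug
mmu-miR-99a-5p: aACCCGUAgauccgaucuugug
mmu-let-7c-5p: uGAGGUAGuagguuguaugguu
mmu-let-7b-5p: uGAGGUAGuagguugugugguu
mmu-miR-22-3p: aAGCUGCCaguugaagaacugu
mmu-miR-199a-5p: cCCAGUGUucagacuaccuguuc
mmu-miR-214-3p: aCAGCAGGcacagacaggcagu
The seed AGCAGCA was shared by miR-322-5p, miR-15a-5p and miR-16-5p, CCCUGAG by miR-351-5p and miR-125b-5p, ACCCGUA by miR-100-5p and miR-99a-5p, and GAGGUAG by let-7c-5p and let-7b-5p. The counts are of the host transcripts, and mature microRNAs were not measured.

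C430049B03Rik (chrX:52143205-52146093, minus strand, in GRCm39 as deposited) had 69.6, 82.7, 69.6 and 74.4 CPM in the col1 libraries, 48.4, 44.1, 56.1 and 46.8 CPM in the col1-ACLP libraries and 61.5, 67.4, 60.8 and 64.3 CPM in the col1-ACLP+SB libraries. The col1-ACLP libraries were the lowest 4 and the inhibitor libraries lay between the other groups. It was called lower on col1-ACLP (log2 fold change -0.60 ± 0.07 (SE), edgeR adjusted p = 9.08e-07), a call that fell inside the limit of 0.58 without col1 library 2 or col1-ACLP library 2 or 4 (log2 fold change -0.5797 to -0.54). It was higher with the inhibitor than without (log2 fold change 0.38 ± 0.07 (SE), edgeR adjusted p = 0.0074). Mir99ahg had 22.5, 13.6, 18.2 and 15.5 CPM in the col1 libraries, 10.7, 13.4, 12.9 and 12.1 CPM in the col1-ACLP libraries and 14.2, 15.6, 9.76 and 13.4 CPM in the col1-ACLP+SB libraries. All col1-ACLP libraries lay under all col1 libraries, and its lower value (log2 fold change -0.50 ± 0.15 (SE), edgeR adjusted p = 0.0177) went above an adjusted p of 0.05 when col1 library 1 or col1-ACLP library 1 was left out (edgeR adjusted p 0.0715 to 0.115). Mir100hg, which carries the related cluster, had 165, 115, 159 and 135 CPM in the col1 libraries, 119.9, 122, 136 and 125 CPM in the col1-ACLP libraries and 152, 160.1, 137 and 142 CPM in the col1-ACLP+SB libraries. Its col1 and col1-ACLP libraries overlapped, and the difference did not pass (edgeR adjusted p = 0.116). It passed in 1 of the 12 fits without a library, that without col1 library 2 (log2 fold change -0.28, edgeR adjusted p = 0.00496). Over these fits the log2 fold change ran from -0.28 to -0.11, and the edgeR adjusted p reached 0.416 without col1 library 1. Dleu2, host of miR-15a and miR-16 and named for these after its values were seen, had group means of 10.0 ± 1.02, 8.90 ± 1.40 and 10.0 ± 0.448 CPM (SD, n = 4 each), and edgeR adjusted p was 0.473. Lncppara, likewise named for its let-7 genes, had 8.37 ± 0.601, 8.84 ± 0.799 and 9.50 ± 1.05 CPM, with an edgeR adjusted p of 0.767 for col1-ACLP vs col1.

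Dnm3os and Mir22hg were higher on col1-ACLP by adjusted p. Dnm3os, the antisense transcript of Dnm3 that gives miR-199a and miR-214, had 28.008, 32.4, 31.7 and 32.1 CPM in the col1 libraries, 36.6, 35.4, 43.5 and 34.2 CPM in the col1-ACLP libraries and 41.7, 44.5, 38.5 and 36.1 CPM in the col1-ACLP+SB libraries. Every library with ACLP, with or without the inhibitor, exceeded every col1 library. It was higher on col1-ACLP (log2 fold change 0.27 ± 0.09 (SE), edgeR adjusted p = 0.0297), an adjusted p under 0.05 that was lost when col1 library 1 or col1-ACLP library 3 was left out (edgeR adjusted p 0.109 to 0.164), and also with the inhibitor, against col1 (log2 fold change 0.37 ± 0.09 (SE), edgeR adjusted p = 0.00447). Mir22hg had 48.4, 52.2, 56.8 and 56.1 CPM in the col1 libraries, 59.4, 59.4, 64.2 and 62.4 CPM in the col1-ACLP libraries and 62.4, 71.1, 65.1 and 62.8 CPM in the col1-ACLP+SB libraries. Its ACLP libraries also lay above the col1 libraries in both groups. Mir22hg was higher on col1-ACLP (log2 fold change 0.20 ± 0.07 (SE), edgeR adjusted p = 0.0351), lost when col1 library 1 or 2 or col1-ACLP library 2, 3 or 4 was left out (edgeR adjusted p 0.052 to 0.141), and also with the inhibitor, against col1 (log2 fold change 0.29 ± 0.07 (SE), edgeR adjusted p = 0.00372). Carmn varied widely, from 7.97 to 22.9 CPM, and passed in no comparison (edgeR adjusted p = 0.112 and log2 fold change -0.51 for col1-ACLP vs col1, with an adjusted p under 0.05 in 3 of 20 alternatives). Of 7 genes for microRNA processing, Xpo5, the exporter of precursor hairpins, was higher on col1-ACLP (log2 fold change 0.26 ± 0.06 (SE), edgeR adjusted p = 0.00259) and lower with the inhibitor (log2 fold change -0.24 ± 0.06 (SE), edgeR adjusted p = 0.0422), and the others did not pass. Of all genes tested, 9.52% were higher on col1-ACLP and 0.905% lower with the inhibitor. The list's median log2 fold change for col1-ACLP vs col1 was -0.34 over the 6 hosts, with 2 hosts higher and 2 lower by adjusted p, beside a median of -0.0099 and shares of 9.52% and 8.41% for all genes tested.

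Hosts of small nucleolar RNAs (snoRNAs) were the largest list in the set, with 14 of 21 genes by deposited symbol. ENSMUSG00000120369 is Snhg7 in GENCODE vM39, also a listed host, and is described apart from the 14. The list is not complete. In GENCODE vM39, same-strand exonic bases of 2410006H16Rik hold Snord65, Snord49b and Snord49a, and those of 1110038B12Rik hold Snord52. Both RNAs are described above and lie outside the list and its medians. Introns of such hosts release snoRNAs, which guide chemical marks on ribosomal RNA. Several hosts begin with the pyrimidine tract of ribosomal protein genes, the 5' TOP motif. RefSeq promoters of GRCm38.p6 were given for 11 of the 14, with 13 start sites. A C followed by at least 4 pyrimidines within 10 bases of the start was found at 6 of the 13 (46.2%), against 57 of the 148 promoters of the whole set (38.5%) and 30.7% of all 32851 promoters. The 30 bases around these starts are shown because they carry the tract, in capitals, read 5′ to 3′ on the strand of the gene.
Gas5: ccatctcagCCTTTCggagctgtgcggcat
Snhg12: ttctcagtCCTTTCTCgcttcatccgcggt
Snhg8: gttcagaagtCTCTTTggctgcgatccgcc
Snhg18: cccaggCCCCTCCTCTagccccgcctcttc
Snhg16: gcgcaagcgcgatctcgtCCTTTCCgaggt
Snhg5: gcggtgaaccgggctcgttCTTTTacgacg
They come from chr1:161035156-161035185, plus strand, chr4:132308668-132308697, plus strand, chr3:123508317-123508346, minus strand, chr15:32244643-32244672, minus strand, chr11:116671650-116671679, plus strand and chr9:88522878-88522907, minus strand. A match to these letters is a description and no proof of a TOP transcript.

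Levels of the 14 listed hosts ran from 6.30 CPM (Snhg4) to 47.1 CPM (Zfas1). None was called in any of the 3 comparisons, and the list's median log2 fold changes were -0.0252, 0.00298 and 0.0140, beside -0.0099, 0.00459 and 0.00485 for all genes tested. By adjusted p, Snhg5 was higher and Snhg20 lower on col1-ACLP, where all genes gave 9.52% and 8.41%, and nothing passed in the other comparisons. Snhg5 had 25.2, 27.2, 27.2 and 28.3 CPM in the col1 libraries, 37.3, 34.8, 32.3 and 27.0 CPM in the col1-ACLP libraries and 37.4, 30.4, 29.0 and 28.8 CPM in the col1-ACLP+SB libraries. Its col1 and col1-ACLP libraries overlapped, and its difference (log2 fold change 0.29 ± 0.10 (SE), edgeR adjusted p = 0.0432) was lost when col1 library 1, 2, 3 or 4 or col1-ACLP library 1, 2 or 3 was left out (edgeR adjusted p 0.0539 to 0.183). Snhg20 had 18.1, 19.2, 17.5 and 16.6 CPM in the col1 libraries, 12.8, 12.1, 14.4 and 12.9 CPM in the col1-ACLP libraries and 15.2, 23.4, 11.9 and 16.1 CPM in the col1-ACLP+SB libraries. Its col1-ACLP libraries lay below all col1 libraries, yet the difference (log2 fold change -0.46 ± 0.14 (SE), edgeR adjusted p = 0.0259) went above an adjusted p of 0.05 when col1 library 1 or 2 or col1-ACLP library 1, 2 or 4 was left out (edgeR adjusted p 0.0535 to 0.0735). Gas5, a growth-arrest transcript, had group means of 19.5 ± 3.36, 20.2 ± 0.765 and 19.4 ± 3.04 CPM, and Snhg17 had 45.7 ± 3.91, 43.7 ± 3.41 and 46.2 ± 5.86 CPM (SD, n = 4 each). The remaining hosts, Snhg1, Snhg4, Snhg6, Snhg8, Snhg12, Snhg15, Snhg16, Snhg18, Zfas1 and Epb41l4aos, had edgeR adjusted p values from 0.201 to 0.989 for col1-ACLP vs col1. ENSMUSG00000120369 (Snhg7 in GENCODE vM39) had group means of 6.35 ± 1.27, 5.73 ± 0.485 and 5.99 ± 1.54 CPM (SD, n = 4 each) and an edgeR adjusted p of 0.679 for col1-ACLP vs col1. Of 11 genes for snoRNA-binding proteins, Fbl, the methyltransferase fibrillarin, and Nop56 were higher on col1-ACLP (log2 fold changes 0.24 and 0.34), with a list median of 0.19, beside 9.52% higher and a median of -0.0099 over all genes. Of 7 Hox cluster lncRNAs listed, Hoxaas2 alone was in the set, at 8.70 ± 2.04, 8.83 ± 1.58 and 9.44 ± 1.62 CPM.

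The 6 lncRNAs called higher on col1-ACLP were 1700061I17Rik, Gm15867, Gm4117, Gm4419, AI506816 and Gm47283. 1700061I17Rik (chr3:116854171-116871414, minus strand), a gene apart from any protein-coding gene, had 4.05, 4.29, 2.19 and 3.18 CPM in the col1 libraries, 10.2, 10.505, 9.79 and 8.29 CPM in the col1-ACLP libraries and 8.43, 8.49, 6.56 and 8.90 CPM in the col1-ACLP+SB libraries. Every library with ACLP exceeded every col1 library. It was higher on col1-ACLP (log2 fold change 1.499 ± 0.18 (SE), edgeR adjusted p = 7.19e-07) and also with the inhibitor, against col1 (log2 fold change 1.23 ± 0.18 (SE), edgeR adjusted p = 2.62e-05). Gm15867 (chr1:192537231-192539259, plus strand) lies antisense to Sertad4, a gene of the SERTA domain family, and had 5.01, 4.18, 3.07 and 4.90 CPM in the col1 libraries, 8.65, 9.76, 8.38 and 10.7 CPM in the col1-ACLP libraries and 8.74, 8.63, 9.09 and 8.10 CPM in the col1-ACLP+SB libraries. Its ACLP libraries were at least 8.10 CPM and its col1 libraries at most 5.01 CPM. Gm15867 rose on col1-ACLP (log2 fold change 1.12 ± 0.16 (SE), edgeR adjusted p = 7.58e-06) beside Sertad4, whose log2 fold change was 1.70 ± 0.06 (edgeR adjusted p = 8.13e-16). Exons of Sertad4 cover 20.03% of the exonic bases of Gm15867.

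The 300 bases around the starts of these RNAs, 250 before and 50 after, are shown for the pair with the greatest rise, from RefSeq on GRCm38.p6, 5′ to 3′ on the strand of the gene. Capitals mark matches to the AP-1 letters TGANTCA and the SMAD letters CAGACA on either strand. Gm15867 is from chr1:192854678-192854977, plus strand and 1700061I17Rik from chr3:117077716-117078015, minus strand.
Gm15867: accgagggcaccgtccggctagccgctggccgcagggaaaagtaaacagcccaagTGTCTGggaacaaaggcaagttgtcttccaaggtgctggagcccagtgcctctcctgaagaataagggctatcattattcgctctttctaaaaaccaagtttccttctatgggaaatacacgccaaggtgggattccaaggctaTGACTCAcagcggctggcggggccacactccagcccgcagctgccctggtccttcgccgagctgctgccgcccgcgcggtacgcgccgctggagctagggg
1700061I17Rik: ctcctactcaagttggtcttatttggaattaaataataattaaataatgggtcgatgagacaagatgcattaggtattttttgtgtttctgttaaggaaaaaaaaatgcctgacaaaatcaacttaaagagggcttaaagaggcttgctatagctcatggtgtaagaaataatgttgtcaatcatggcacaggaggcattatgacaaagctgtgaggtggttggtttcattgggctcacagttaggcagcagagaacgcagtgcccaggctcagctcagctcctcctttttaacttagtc
The Gm15867 window held 1 match to each motif and the 1700061I17Rik window held none of the motifs searched on both strands. AP-1 letters were in 7.81% of all promoters and SMAD letters in 21.0%.

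Gm4117 starts near and opposite to Vcan, which encodes the proteoglycan versican, and had 6.45, 6.01, 5.52 and 9.32 CPM in the col1 libraries, 11.7, 14.4, 9.55 and 11.4 CPM in the col1-ACLP libraries and 11.3, 11.9, 12.2 and 10.7 CPM in the col1-ACLP+SB libraries. It rose on col1-ACLP (log2 fold change 0.78 ± 0.16 (SE), edgeR adjusted p = 0.000596), and Vcan rose with a log2 fold change of 0.30 ± 0.05 (edgeR adjusted p = 0.000171). Gm4419 lies opposite Ywhaq, a 14-3-3 protein gene, and had 3.63, 3.55, 3.98 and 3.21 CPM in the col1 libraries, 4.77, 5.75, 6.45 and 5.70 CPM in the col1-ACLP libraries and 6.58, 5.67, 4.75 and 6.48 CPM in the col1-ACLP+SB libraries. All its libraries with ACLP were above the col1 libraries, and it rose on col1-ACLP (log2 fold change 0.66 ± 0.18 (SE), edgeR adjusted p = 0.00941) beside Ywhaq (0.34 ± 0.06, edgeR adjusted p = 0.000141). AI506816, the most abundant RNA called in this comparison, had 84.9, 91.1, 82.8 and 88.9 CPM in the col1 libraries, 128, 135, 136 and 142 CPM in the col1-ACLP libraries and 110.1, 106, 127 and 108 CPM in the col1-ACLP+SB libraries. The 3 groups did not overlap, with col1 lowest and col1-ACLP highest. AI506816 rose on col1-ACLP (log2 fold change 0.64 ± 0.06 (SE), edgeR adjusted p = 1.05e-08) and also with the inhibitor, against col1 (log2 fold change 0.38 ± 0.06 (SE), edgeR adjusted p = 6.78e-05), and was lower with the inhibitor than without (log2 fold change -0.26 ± 0.06 (SE), edgeR adjusted p = 0.0234). That last difference was lost when col1-ACLP library 2, 3 or 4 or col1-ACLP+SB library 1, 2 or 4 was left out (edgeR adjusted p 0.0602 to 0.0935).

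Gm47283 and Erdr1 must be read together. GENCODE vM39 names Gm47283 Erdr1y, the Y-linked counterpart of Erdr1 on the X, and how reads that match both were assigned is not given in the sources used here. Gm47283 had 22.0, 15.5, 32.2 and 16.5 CPM in the col1 libraries, 30.2, 30.8, 40.9 and 27.2 CPM in the col1-ACLP libraries and 32.8, 27.9, 32.7 and 21.3 CPM in the col1-ACLP+SB libraries. Its groups overlapped, and its rise on col1-ACLP (log2 fold change 0.59 ± 0.17 (SE), edgeR adjusted p = 0.0162) was lost when col1 library 2 or 4 or col1-ACLP library 3 was left out (edgeR adjusted p 0.0691 to 0.095), and with DESeq2 (adjusted p = 0.0939). Erdr1 had 70.5, 63.0, 57.8 and 63.3 CPM in the col1 libraries, 46.2, 39.7, 43.7 and 41.7 CPM in the col1-ACLP libraries and 60.0, 75.5, 40.8 and 61.3 CPM in the col1-ACLP+SB libraries. It was lower on col1-ACLP (log2 fold change -0.57 ± 0.11 (SE), edgeR adjusted p = 0.000574), with all 4 libraries below all col1 libraries. Summed over both genes the levels were 92.5, 78.5, 90.0 and 79.8 CPM in the col1 libraries, 76.4, 70.5, 84.7 and 68.9 CPM in the col1-ACLP libraries and 92.8, 103, 73.5 and 82.6 CPM in the col1-ACLP+SB libraries. The summed groups overlapped, at 85.2 ± 7.06, 75.1 ± 7.14 and 88.1 ± 12.9 CPM (SD, n = 4), so both single-gene values are uncertain.

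Gm830 had the largest fall among the 17 called lower. It lies at chr4:95352961-95375674, minus strand, apart from protein-coding genes, and had 6.97, 9.90, 9.35 and 12.7 CPM in the col1 libraries, 1.71, 2.96, 1.44 and 1.95 CPM in the col1-ACLP libraries and 2.85, 2.55, 5.56 and 4.27 CPM in the col1-ACLP+SB libraries. The highest col1-ACLP library was below the lowest col1 library, and Gm830 fell with a log2 fold change of -2.26 ± 0.26 (SE, edgeR adjusted p = 2.65e-07). Only its col1 libraries and col1-ACLP+SB library 3 exceeded 5 CPM. Gm830 thus met the rule of the set through the group where it was high, and its fall is tied to that choice. ENSMUSG00000121093 (chr17:21695173-21698393, plus strand), likewise apart, had 16.5, 15.2, 12.7 and 13.4 CPM in the col1 libraries, 3.64, 6.22, 5.01 and 3.86 CPM in the col1-ACLP libraries and 5.90, 5.71, 7.68 and 5.82 CPM in the col1-ACLP+SB libraries. It fell on col1-ACLP (log2 fold change -1.62 ± 0.17 (SE), edgeR adjusted p = 5.48e-08), with no overlap of the groups. ENSMUSG00000121092, a single block of 534 bases on chromosome 8, had 33.8, 35.8, 28.4 and 28.8 CPM in the col1 libraries, 19.979, 16.2, 18.1 and 19.3 CPM in the col1-ACLP libraries and 18.1, 22.5, 22.0 and 20.1 CPM in the col1-ACLP+SB libraries. All libraries with ACLP lay below the col1 libraries, and it fell on col1-ACLP (log2 fold change -0.79 ± 0.10 (SE), edgeR adjusted p = 1.66e-06).

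Gm10941 and Gm12454 lie across from enzyme genes. Gm10941 (chr10:77093610-77095057, minus strand) starts 5 bases from Pofut2, a fucosyltransferase gene on the other strand, and had 9.68, 12.4, 9.59 and 11.1 CPM in the col1 libraries, 5.44, 6.33, 5.01 and 3.44 CPM in the col1-ACLP libraries and 9.23, 7.75, 7.89 and 9.72 CPM in the col1-ACLP+SB libraries. The col1-ACLP libraries were the lowest 4. Gm10941 fell on col1-ACLP (log2 fold change -1.08 ± 0.17 (SE), edgeR adjusted p = 2.45e-05), while Pofut2 had a log2 fold change of -0.10 ± 0.05 that did not pass (edgeR adjusted p = 0.14). Gm12454 lies antisense to Car9, a carbonic anhydrase gene known as a target of hypoxia signalling, and had 8.82, 9.14, 9.32 and 5.16 CPM in the col1 libraries, 3.64, 4.67, 4.14 and 2.44 CPM in the col1-ACLP libraries and 3.70, 7.45, 3.78 and 5.26 CPM in the col1-ACLP+SB libraries. Its col1-ACLP libraries lay below all col1 libraries, and col1 library 4 was low for its group. Gm12454 fell (log2 fold change -1.12 ± 0.24 (SE), edgeR adjusted p = 0.00118) beside Car9 (-1.14 ± 0.13, edgeR adjusted p = 4.22e-07). Other genes' exons cover 25.1% of the exonic bases of Gm10941 and 22.4% of those of Gm12454.

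The starts of the most strongly lower RNA and of Gm10941, whose window also holds the start of Pofut2, are shown with that of Firre, from RefSeq on GRCm38.p6, 5′ to 3′ on the strand of the gene. Capitals mark E-box (CACGTG) and SMAD (CAGACA) letters on either strand. Gm830 is from chr4:95487480-95487779, minus strand, Gm10941 from chr10:77259174-77259473, minus strand and Firre from chrX:50635272-50635571, minus strand.
Gm830: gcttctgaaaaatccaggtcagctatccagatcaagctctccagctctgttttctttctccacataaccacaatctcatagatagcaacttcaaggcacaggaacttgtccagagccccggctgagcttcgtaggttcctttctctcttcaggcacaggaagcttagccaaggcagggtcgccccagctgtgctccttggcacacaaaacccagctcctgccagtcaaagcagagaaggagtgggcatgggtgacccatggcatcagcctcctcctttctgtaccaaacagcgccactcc
Gm10941: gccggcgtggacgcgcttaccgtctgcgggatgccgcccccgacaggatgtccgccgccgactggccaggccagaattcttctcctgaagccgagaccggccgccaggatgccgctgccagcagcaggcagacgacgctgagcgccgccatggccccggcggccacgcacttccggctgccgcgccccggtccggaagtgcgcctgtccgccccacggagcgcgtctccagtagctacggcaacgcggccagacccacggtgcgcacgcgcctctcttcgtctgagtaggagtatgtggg
Firre: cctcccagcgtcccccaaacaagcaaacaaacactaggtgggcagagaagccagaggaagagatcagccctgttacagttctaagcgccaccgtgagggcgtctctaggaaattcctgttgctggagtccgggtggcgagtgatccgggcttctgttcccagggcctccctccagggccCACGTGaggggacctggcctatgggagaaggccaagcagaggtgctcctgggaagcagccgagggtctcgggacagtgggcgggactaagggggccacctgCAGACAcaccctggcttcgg
Of the motifs searched on both strands, Gm830 and Gm10941 held none and Firre held 1 E-box and 1 SMAD match.

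The other lncRNAs called lower had smaller changes. Group means went, on col1 and then col1-ACLP, for E530011L22Rik from 13.6 ± 1.01 to 7.58 ± 1.77 CPM (-0.84 ± 0.16), Sp3os from 6.62 ± 2.08 to 3.80 ± 0.874 CPM (-0.80 ± 0.21), Gm20342 from 8.22 ± 1.88 to 4.91 ± 1.05 CPM (-0.74 ± 0.18) and Gm17251 from 21.1 ± 3.21 to 12.7 ± 2.01 CPM (-0.74 ± 0.13), where values are mean ± SD (n = 4) and, in brackets, the log2 fold change ± SE. The same values were, for ENSMUSG00000120849 from 9.48 ± 3.15 to 5.94 ± 0.952 CPM (-0.68 ± 0.20), G630016G05Rik from 9.00 ± 1.35 to 5.65 ± 0.697 CPM (-0.67 ± 0.16), Gm34006 from 7.86 ± 1.16 to 4.97 ± 0.637 CPM (-0.66 ± 0.19) and ENSMUSG00000120512 from 20.9 ± 3.68 to 13.2 ± 0.907 CPM (-0.66 ± 0.12). For the last pair they were Gm12602 from 10.0 ± 1.496 to 6.52 ± 0.889 CPM (-0.62 ± 0.15) and Gm28875 from 16.6 ± 0.382 to 11.0 ± 1.11 CPM (-0.59 ± 0.11). Libraries overlapped between the groups for Sp3os, Gm20342 and ENSMUSG00000120849 and for no other of these 10. The edgeR adjusted p ran from 0.000168 (ENSMUSG00000120512) to 0.0172 (ENSMUSG00000120849). Sp3os lost the call when col1 library 2 was left out (edgeR adjusted p 0.0607), Gm34006 when col1 library 2 or col1-ACLP library 4 was left out (edgeR adjusted p 0.0523 to 0.053) and ENSMUSG00000120849 when col1 library 2 or col1-ACLP library 1 or 4 was left out (edgeR adjusted p 0.0525 to 0.123), where leaving out col1 library 2 moved its log2 fold change to -0.43. With the adjusted p still under 0.05, the call ended by the limit of 0.58 for ENSMUSG00000120512 without col1 library 2 (log2 fold change -0.53), G630016G05Rik without col1 library 3 (log2 fold change -0.5765), Gm12602 without col1 library 3 or col1-ACLP library 1 or 4 (log2 fold change -0.57 to -0.53) and Gm28875 without col1 library 3 or col1-ACLP library 3 or 4 (log2 fold change -0.5759 to -0.55). In all, 9 of the 23 calls of this comparison ended in at least 1 fit without a library.

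Positions next to protein-coding genes were common in the set. Of the 229, 88 overlapped a protein-coding gene on the opposite strand, 20 overlapped one on the same strand, 48 started within 5 kb of such a gene's start without overlap, and 73 lay apart. Among the 23 called between col1-ACLP and col1, 14 had a tested protein-coding neighbour, in 17 pairs. In 9 pairs the neighbour differed in the same direction by adjusted p, in none in the opposite direction, and in 8 it did not pass, beside 9.52% of all genes tested higher and 8.41% lower. Sertad4 and Car9 were themselves called. Rab11b, a vesicle GTPase gene across from Gm17251, had a log2 fold change of -0.32 ± 0.05, and Zfp651, across from E530011L22Rik, -0.36 ± 0.05. Mmp14, the membrane-anchored matrix metalloproteinase in which ENSMUSG00000120849 lies on the same strand, had -0.49 ± 0.04. Sp3, across from Sp3os, had -0.01 ± 0.06 (edgeR adjusted p = 0.919), and Meis2, beside G630016G05Rik, had -0.13 ± 0.06 (edgeR adjusted p = 0.126). Of the 223 lncRNAs in GENCODE vM39, 122 shared at least 10% of their exonic bases with another gene, and the part of shared reads in these values was not tested.

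**Figure D5:**
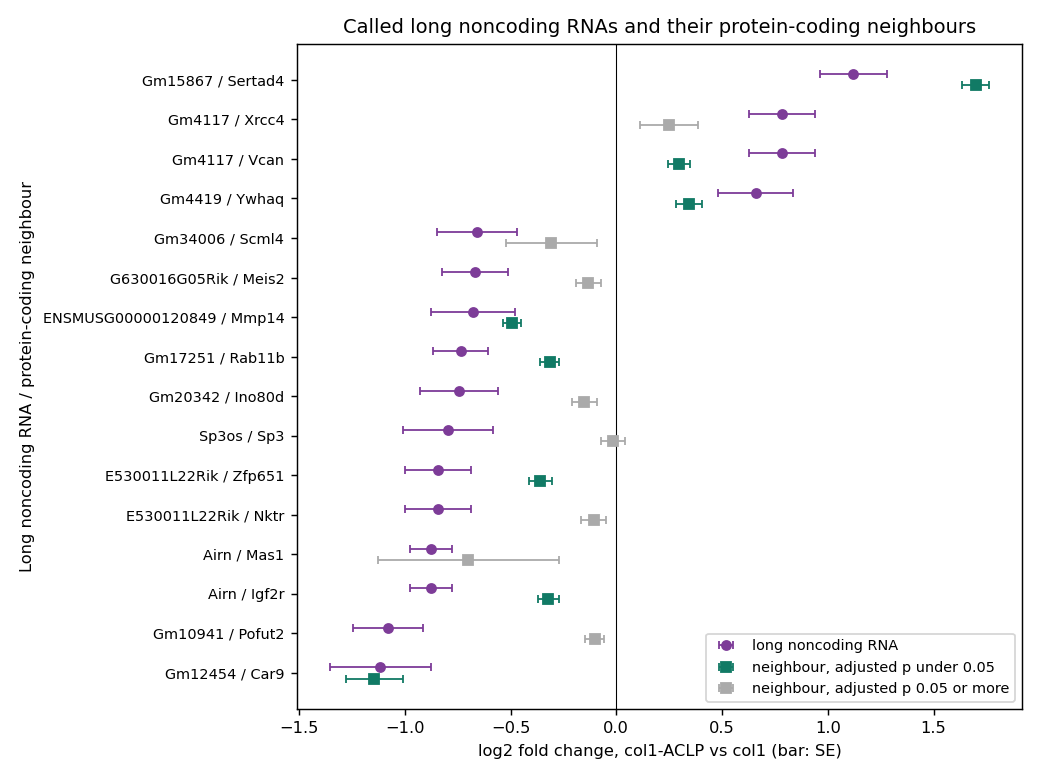
Log2 fold change, col1-ACLP vs col1, of called lncRNAs (circles) and of the protein-coding gene that overlaps each or starts within 5 kb (squares, green where the adjusted p was under 0.05), with bars for the SE. All but 1 of the 17 pairs are drawn. In 9 of the 17 the neighbour passed in the direction of the lncRNA, and Gm15867 with Sertad4 and Gm12454 with Car9 are the pairs in which both genes were called.

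The lower median was found in each class of position. The 73 lncRNAs apart had a median log2 fold change of -0.18 with 22 lower and 7 higher by adjusted p, and the 88 opposite-strand overlaps had -0.13 with 12 lower and 4 higher, beside a median of 0.00807 with 11.9% lower and 13.9% higher for all genes at 5 CPM or more. The 20 same-strand overlaps had -0.11 and the 48 with a near start -0.14. The 41 whose exons share no base with another gene in GENCODE vM39 had -0.21, with 13 lower and 3 higher. By length, the medians were -0.13 below 2500 bases, -0.15 from 2500 to 5000 bases and -0.19 at 5000 bases or more. Promoter windows matched 125 of the 229 lncRNAs, 148 windows in all. Counted by gene, since some have several starts, the SMAD letters CAGACA were near a start of 7 of 23 lncRNAs lower by adjusted p (30.4%) and 4 of 12 higher (33.3%), against 24.0% of the 125 and 23.6% of all 27025 genes. AP-1 letters (TGANTCA) were near 2 of the 23 (8.70%) and 2 of the 12 (16.7%), and TEAD letters (GGAATG) near 4 (17.4%) and 3 (25%), where all genes had 8.97% and 16.6%. By window, E-box letters (CACGTG) were in 10.1% of the 148 and 7.15% of all promoters, CRE letters (TGACGTCA) in 3.38% and 1.79%, TGATGNAA, a composite of C/EBP and ATF letters, in 0.676% and 3.97%, and the CArG box of SRF in 1.35% and 1.63%. All were searched on both strands, and none of these motifs contains another.

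On col1-ACLP+SB against col1, which differ in both ACLP and the inhibitor, 5 of the 229 were called higher and 6 lower, or 2.18% and 2.62%, against 1.27% and 1.01% of all genes tested. The median log2 fold change was -0.0457, against 0.00459 for all genes. This comparison shares the col1 libraries with that of col1-ACLP, so the values of both are given side by side and not as independent evidence. The higher calls were 1700061I17Rik (1.23 ± 0.18, and 1.499 ± 0.18 without the inhibitor), Gm15867 (1.01 ± 0.16 and 1.12 ± 0.16), Gm4117 (0.75 ± 0.16 and 0.78 ± 0.16), Gm4419 (0.71 ± 0.18 and 0.66 ± 0.18) and 4631405J19Rik (1.02 ± 0.17 and 0.38 ± 0.17), as log2 fold changes ± SE. The lower calls were Gm830 (-1.34 ± 0.24 and -2.26 ± 0.26), ENSMUSG00000121093 (-1.20 ± 0.16 and -1.62 ± 0.17), ENSMUSG00000119972 (-0.73 ± 0.17 and -0.39 ± 0.17), Gm12602 (-0.67 ± 0.15 and -0.62 ± 0.15), ENSMUSG00000121092 (-0.62 ± 0.10 and -0.79 ± 0.10) and Gm17251 (-0.58 ± 0.13 and -0.74 ± 0.13). The call ended by the limit of 0.58 for ENSMUSG00000121092 without col1 library 2 or col1-ACLP+SB library 1 (log2 fold change -0.56 to -0.55) and for Gm17251 without col1 library 1 or 3 or col1-ACLP+SB library 1 or 3 (log2 fold change -0.57 to -0.50), and glmTreat gave 1 higher and 1 lower. In each of the 11 the inhibitor libraries lay wholly above or wholly below the col1 libraries. That alone held for 15 higher and 16 lower lncRNAs, 6.55% and 6.99%, where all genes gave 6.7% and 6.32%. By adjusted p alone 11 (4.8%) were higher and 9 (3.93%) lower, against 4.6% and 4.54% of all genes.

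4631405J19Rik and ENSMUSG00000119972 were called here and in neither other comparison. 4631405J19Rik (chr2:92858301-92875077, plus strand) lies opposite Prdm11 and had 6.42, 4.29, 4.37 and 4.95 CPM in the col1 libraries, 5.99, 6.30, 7.52 and 6.24 CPM in the col1-ACLP libraries and 12.1, 12.1, 8.06 and 8.60 CPM in the col1-ACLP+SB libraries. All inhibitor libraries exceeded all other libraries. It rose on col1-ACLP+SB (log2 fold change 1.02 ± 0.17 (SE), edgeR adjusted p = 0.000141), and the difference from col1-ACLP did not pass (log2 fold change 0.65 ± 0.17 (SE), edgeR adjusted p = 0.0544), although 7 of 20 alternatives put it under 0.05. ENSMUSG00000119972 had 6.97, 5.40, 6.86 and 7.30 CPM in the col1 libraries, 5.56, 5.00, 5.11 and 4.50 CPM in the col1-ACLP libraries and 4.67, 3.86, 3.49 and 4.00 CPM in the col1-ACLP+SB libraries. Its inhibitor libraries lay below all col1 libraries, and it fell (log2 fold change -0.73 ± 0.17 (SE), edgeR adjusted p = 0.00539), while the difference from col1-ACLP did not pass (edgeR adjusted p = 0.434).

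Between col1-ACLP+SB and col1-ACLP, the comparison of the inhibitor itself, Gm10941 and Airn were called higher and no lncRNA lower, 0.873% and 0% of the 229 against 0.085% and 0.0425% of all genes tested. At an unadjusted p under 0.05, 42 of the 229 were higher and 2 lower, against 6.19% and 6.63% of all genes. DESeq2 and limma-voom also called 0 lower. The count called higher ran from 0 to 4 when 1 library was left out, and it varied with the method, as given below. By adjusted p 11 (4.8%) were higher and 1 (0.437%) lower, where all genes gave 0.571% higher and 0.905% lower. The median log2 fold change was 0.0960, against 0.00485 for all genes, and 159 of the 229 had estimates above 0. Of the 32 lncRNAs at 30 CPM or more 9 (28.1%) were higher and 1 (3.12%) lower by adjusted p. Protein-coding genes of that class gave 1.06% higher and 2.18% lower. In 23 lncRNAs all inhibitor libraries were above all col1-ACLP libraries, 10% of the set, against 3.65% of all genes, and in 2 all were below (0.873%, against 4.52%). The libraries on col1-ACLP are the same as in the comparison with col1, so an RNA that was low in them enters both.

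Gm10941 rose with the inhibitor from 5.05 ± 1.21 to 8.65 ± 0.978 CPM (SD, n = 4), with log2 fold change 0.77 ± 0.17 (SE), edgeR adjusted p = 0.0156. The call was lost when col1-ACLP library 4 or col1-ACLP+SB library 4 was left out (edgeR adjusted p 0.0688 to 0.0769). Airn rose from 31.7 ± 3.50 to 47.7 ± 5.88 CPM, with log2 fold change 0.59 ± 0.10 (SE), edgeR adjusted p = 0.00245, and its adjusted p stayed under 0.05 with each library left out, but its call, close to the limit of 0.58, ended without col1-ACLP library 4 or col1-ACLP+SB library 1 or 2 (log2 fold change 0.51 to 0.54). Both calls ended without col1-ACLP library 4. The others higher by adjusted p, besides Malat1, Xist, Neat1, Firre and C430049B03Rik, were Erdr1, Gm47469, E130307A14Rik and 5031425E22Rik, and AI506816 was the 1 lower. Gm47469 had 70.0, 57.4, 65.6 and 63.1 CPM in the col1 libraries, 41.1, 53.3, 42.8 and 46.9 CPM in the col1-ACLP libraries and 57.2, 60.5, 56.1 and 56.5 CPM in the col1-ACLP+SB libraries. It was lowest on col1-ACLP, and the rise with the inhibitor (log2 fold change 0.32 ± 0.08 (SE), edgeR adjusted p = 0.032) was lost when col1-ACLP library 1, 3 or 4 or col1-ACLP+SB library 1, 2 or 4 was left out (edgeR adjusted p 0.0668 to 0.125), and under the replicate block (adjusted p = 0.0646).

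E130307A14Rik and 5031425E22Rik, named for passing the adjusted p here after their values were seen, were also lowest on col1-ACLP. E130307A14Rik, on chromosome 10, had 35.1, 29.3, 37.8 and 36.0 CPM in the col1 libraries, 26.5, 23.0, 22.5 and 23.0 CPM in the col1-ACLP libraries and 31.0, 37.1, 30.2 and 30.7 CPM in the col1-ACLP+SB libraries. It fell on col1-ACLP (log2 fold change -0.54 ± 0.09 (SE), edgeR adjusted p = 9.49e-05) and rose with the inhibitor (log2 fold change 0.44 ± 0.09 (SE), edgeR adjusted p = 0.0124), the latter lost when col1-ACLP library 3 or 4 or col1-ACLP+SB library 2 was left out (edgeR adjusted p 0.0544 to 0.0572). 5031425E22Rik had 16.967, 19.5, 17.7 and 17.7 CPM in the col1 libraries, 9.96, 12.7, 14.5 and 12.6 CPM in the col1-ACLP libraries and 16.0, 20.7, 17.1 and 16.9 CPM in the col1-ACLP+SB libraries. It fell on col1-ACLP (log2 fold change -0.53 ± 0.12 (SE), edgeR adjusted p = 0.00163) and rose with the inhibitor (log2 fold change 0.51 ± 0.12 (SE), edgeR adjusted p = 0.0253), the latter lost when col1-ACLP library 1, 2 or 4 or col1-ACLP+SB library 2 or 4 was left out (edgeR adjusted p 0.0567 to 0.109). For Erdr1 the rise (log2 fold change 0.47 ± 0.11 (SE), edgeR adjusted p = 0.0348) was lost when col1-ACLP library 1, 2, 3 or 4 or col1-ACLP+SB library 1, 2 or 4 was left out (edgeR adjusted p 0.0542 to 0.163), besides the uncertainty of its copy on the Y.

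Replicate spread was wider among the lncRNAs than among all genes. The median biological coefficient of variation was 0.147 over the 229 and 0.119 over all genes tested, and 0.0772 over protein-coding genes at 5 CPM or more. At 5 to 10 CPM the lncRNAs had 0.172 and protein-coding genes 0.163. A principal component analysis of the 229 alone put 38.6% of the variance on the leading component. On it the col1 libraries lay from -3.69 to -2.91, the inhibitor libraries from 0.13 to 0.73 and the col1-ACLP libraries from 2.01 to 3.61. The groups did not overlap there, and the next component held 12.3%.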

How the data were processed

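Poly(A) RNA was sequenced as paired-end reads in 12 libraries. The authors aligned them with HISAT2 to the mouse genome (GRCm39 in the study's methods, mm10 in the submitters' processing notes; deposited coordinates match GRCm39) and deposited raw counts per gene with a gene biotype. The counting tool, its strand setting and its treatment of multiply mapped reads are not given in the sources used here.

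Counts of 16465 genes kept by filterByExpr were scaled by TMM (factors 0.966 to 1.02) and fitted in edgeR 4.0.16 (R 4.3.3) with quasi-likelihood tests and group as the only term over all 12 libraries. A gene was called at a Benjamini-Hochberg adjusted p under 0.05 over all 16465 genes and a log2 fold change over 0.58 in size. Levels per library are TMM-scaled CPM, and the threshold of 5 used CPM by library totals. DESeq2 1.42.0 and limma 3.58.1 (voom) served as alternatives, with other scalings, filters, a replicate block and the omission of each library in turn. Library totals were 29246154 to 52201922 counts, so precision was set mostly by the spread between libraries. The tests were checked on simulated counts. The members and lists were chosen with earlier results of these data known. Named were the 15 most abundant lncRNAs, those called in a comparison, listed lncRNAs past the adjusted p, and those nearest the threshold. Replicate numbers did not pair the libraries (correlations of deviations -0.0372 to 0.036). Sequences were taken from RefSeq (GRCm38.p6) and gene overlaps from GENCODE vM39. The values of 1 neighbouring gene are not reported here.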

Additional observations from a re-analysis of the deposited data

Results flagged for a closer look

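In 60 of the named lncRNAs, and in the shares of counts on the 229 lncRNAs and on mitochondrially encoded genes, each group of 4 libraries was searched for a library whose gap to the nearest other was large for the range of its group (Dixon's 95% critical value). This held in 5 of 186 groups, where chance alone flags about 5%. Neat1 stood at 772 CPM in col1-ACLP library 4, below 810 to 811 CPM in the other libraries of that group, and its adjusted p stayed under 0.05 without that library. Oip5os1 was at 199 CPM in col1-ACLP+SB library 2, below 220.0 to 224 CPM. Dnm3os was at 28 CPM in col1 library 1, below 31.7 to 32.4 CPM, and its adjusted p for col1-ACLP vs col1 rose to 0.109 in edgeR without that library. ENSMUSG00000121093 was at 7.68 CPM in col1-ACLP+SB library 3, above 5.71 to 5.90 CPM. Gm12454 was at 5.16 CPM in col1 library 4, below 8.82 to 9.32 CPM.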

How the results depend on the processing

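Of 64 differences of named lncRNAs with an adjusted p under 0.05, 45 kept it in all 20 alternatives and 19 lost it in at least 1, all 19 in a fit without 1 library and 8 in another alternative. No direction of these 64 changed. Scaling by library size alone gave 26 lncRNAs called lower on col1-ACLP, in place of 17. For the inhibitor on col1-ACLP, where 2 were called higher, no filter gave 4, DESeq2 gave 5 and limma-voom gave 1. By adjusted p alone, 14 were higher and 46 lower on col1-ACLP, 11 were higher and 9 lower on col1-ACLP+SB than on col1, and 11 were higher and 1 lower with the inhibitor than without. A test against a log2 fold change of 0.58 (glmTreat) gave 2 higher and 4 lower for col1-ACLP, then 1 and 1 between col1-ACLP+SB and col1, and 0 higher with the inhibitor. Among lncRNAs sharing under 10% of exonic bases with other genes, a choice made after seeing the data, 4 of 101 were called higher and 8 lower on col1-ACLP, 3 higher and 5 lower on col1-ACLP+SB than on col1, and 1 higher and 0 lower with the inhibitor.

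Leaving out 1 library at a time gave 5 to 7 higher and 14 to 25 lower on col1-ACLP, 5 to 6 higher and 4 to 8 lower between col1-ACLP+SB and col1, and 0 to 4 higher with the inhibitor, with 0 without col1-ACLP library 4, 1 without col1-ACLP+SB library 1 or 4, and 4 without col1-ACLP+SB library 3. Without Malat1 the mean shares of counts were 0.671%, 0.570% and 0.664%. With the replicate number as a block, 6 were higher and 18 lower on col1-ACLP, 5 and 6 between col1-ACLP+SB and col1, and 2 and 0 with the inhibitor, and the block put above 0.05 the adjusted p of Snhg5 (col1-ACLP vs col1, edgeR adjusted p = 0.0558) and Gm47469 (inhibitor, 0.0646). Scaling by library size alone put the adjusted p above 0.05 for Dnm3os, Mir22hg and Snhg5 on col1-ACLP, and so did limma-voom and a fit of only the groups compared for Erdr1 with the inhibitor. The cause of these changes was not tested.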
